A study of Mus musculus with 11 samples.

Results

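The genes described here are 10 transcription factors of the stellate cell and mesenchymal lineages, Lhx2, Tcf21, Gata4, Gata6, Foxf1, Hand2, Wt1, Sox4, Meox1 and Mef2c. They were chosen by name, and all 10 were found by symbol among the 27998 genes of the 10x files. The cells came from livers of adult male C57BL/6 mice that all carried the Pdgfrb-BAC-eGFP reporter, which marks cells that express the PDGF receptor beta with GFP, so no cell without the reporter was profiled. GFP+ cells negative for CD45 and CD102 were sorted. For 10x, 5 libraries were made, each from 3 mice pooled. The HSC isolation was retrograde perfusion followed by a density gradient, and the PF isolation was ex vivo digestion of minced liver. HSC-isolation libraries came from uninjured mice, mice at 72 h after a single injection of carbon tetrachloride (CCl4) and mice given CCl4 repeatedly for 6 wk. PF-isolation libraries came from uninjured and 6 wk CCl4 mice. For Smart-seq2, sorted cells were held on 6 plates. They came from uninjured mice, from mice at 14 d after bile duct ligation (BDL) and from mice given CCl4 for 6 wk. The PF isolation was used except on plate 6. The paper used both isolations for its uninjured Smart-seq2 cells, and the labels do not say which mice of plate 6 had the HSC isolation. Wells later named HSC-like came from 2 of the 3 uninjured mice of plate 6 only.

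Hepatic stellate cells (HSCs) are the vitamin A-storing pericytes of the sinusoid, fibroblasts (FBs) lie in the portal tract, and vascular smooth muscle cells (VSMCs) form the wall of its vessels. The 3 types derive from mesoderm that surrounds the liver bud, where factors of the LIM homeobox, GATA, bHLH and forkhead families mark the mesenchyme and Wt1 marks its mesothelial covering. In injury HSCs lose their storing state and turn into collagen-producing myofibroblasts, and lineage factors such as Lhx2 and Tcf21 are known as markers of the quiescent state.

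Cells were clustered without the 10 genes and named from marker lists as HSC-like, FB-like or VSMC-like. The HSC isolation gave 6850, 7293 and 5449 HSC-like cells in uninjured, 72 h and 6 wk livers. The PF isolation gave 4067 and 2641 FB-like and 1514 and 2783 VSMC-like cells in uninjured and 6 wk livers. The clusters were named from these markers, so the marker levels describe the groups and are no independent check of the names. The summed level of the 6 FB markers was 8702 CPM (UMIs per 1000000 UMIs) in uninjured FB-like cells against 30.5 in uninjured HSC-like cells. That of the 5 VSMC markers was 35545 in uninjured VSMC-like cells. Total UMIs per library ranged from 25965670 to 86664085, and median UMIs per cell were higher in injured than in uninjured cells of each type (3151.5 to 11345 over the 7 groups). Pairs of libraries shared 33 to 74 cell barcodes, at most 1.31% of the smaller library. There is 1 library for each condition and isolation, so 10x levels carry no replicate check, intervals (95%, exact Poisson for levels, exact binomial for shares) cover counting error only, and a difference between HSC-like and other cells cannot be told apart from a difference between isolations.

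The sequences that precede 3 of these genes are shown because of their 10x levels. Tcf21 was lower after CCl4 in each cell type of the 10x libraries, with 1 library a group. In FB-like and VSMC-like wells of the Smart-seq2 plates no change of Tcf21 with CCl4 was detected. Lhx2 and Hand2 were highest in HSC-like cells of the uninjured 10x libraries. Promoter windows for 5 of the 10 genes were matched in RefSeq (GRCm38.p6), and the 250 bases before the start are printed 5′ to 3′, with motifs in capitals: CANNTG, the E-box read by bHLH factors such as Tcf21 and Hand2, AGATAA, read by zinc finger factors such as Gata4, and TAATTA, read by homeodomain factors such as Lhx2, each searched on both strands. The windows are chr10:22820144-22820393 on the minus strand for Tcf21, chr2:38339031-38339280 on the plus strand for the first start of Lhx2 and chr8:57320733-57320982 on the plus strand for Hand2.
Tcf21: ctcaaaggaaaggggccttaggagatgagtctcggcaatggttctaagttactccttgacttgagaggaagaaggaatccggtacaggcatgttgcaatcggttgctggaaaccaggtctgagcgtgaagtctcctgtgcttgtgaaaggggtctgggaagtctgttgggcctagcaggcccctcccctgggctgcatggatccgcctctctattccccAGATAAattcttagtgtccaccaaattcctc
Lhx2: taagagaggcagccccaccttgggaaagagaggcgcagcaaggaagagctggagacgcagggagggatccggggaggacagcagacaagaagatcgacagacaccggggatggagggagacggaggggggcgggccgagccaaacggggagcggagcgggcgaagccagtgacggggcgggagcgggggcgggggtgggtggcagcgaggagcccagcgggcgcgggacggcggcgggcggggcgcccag
Hand2: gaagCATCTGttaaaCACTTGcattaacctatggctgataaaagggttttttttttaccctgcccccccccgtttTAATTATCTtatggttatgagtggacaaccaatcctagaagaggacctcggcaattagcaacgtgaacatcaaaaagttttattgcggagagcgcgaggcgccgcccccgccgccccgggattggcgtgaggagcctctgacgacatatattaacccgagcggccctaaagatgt
The Tcf21 window held 1 AGATAA match ending 25 bases before the RefSeq start and 0 E-boxes. This window reaches into the gene as GENCODE places it, up to 22820174, so the match lies upstream of the RefSeq start only. The Hand2 window held 2 E-boxes and 1 AGATAA match on the minus strand that overlaps 1 TAATTA match. The Lhx2 window, with a GC content of 72.8%, held none of the 3 motifs. Of the 250 bases before the start in all 32851 windows of the table, 66.2% held CANNTG, 9.99% AGATAA and 4.84% TAATTA.

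In uninjured liver each cell type had its own set of these factors. In HSC-like cells Lhx2, Tcf21, Foxf1 and Hand2 were higher than in both other types, in FB-like cells Wt1 and Meox1 were, and in VSMC-like cells Mef2c was. On the Smart-seq2 plates the levels of Hand2 in HSC-like wells overlapped those of both other types. Gata4, Gata6 and Sox4 were spread over all 3 types.

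**Figure D1:**
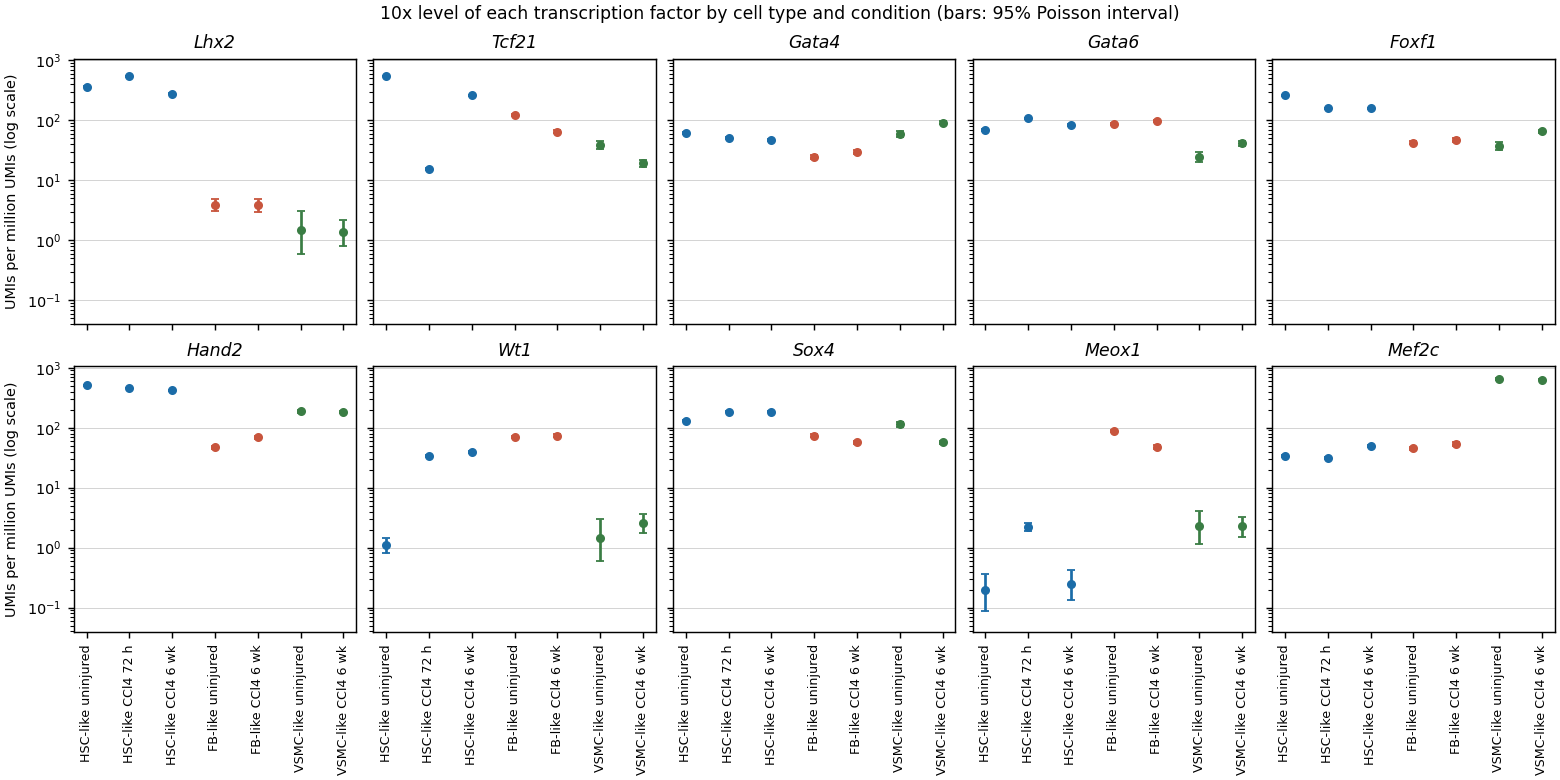
Level of each transcription factor in CPM (log scale) in the 7 groups of 10x cells, HSC-like in blue, FB-like in red and VSMC-like in green, with bars for the 95% Poisson interval. Lhx2 lies between 279 and 541 in the HSC-like groups and at or under 3.91 in the others, Mef2c lies above 600 in VSMC-like cells alone, and Wt1 is at 1.10 in uninjured HSC-like cells against 34.2 and 39.0 after CCl4.

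Lhx2, a LIM homeodomain factor that holds HSCs in the quiescent state (chr2:38339281-38369733, plus strand, GRCm38), was at 362 CPM (357 to 368) in uninjured HSC-like cells, at 3.91 CPM in FB-like cells and at 1.47 CPM in VSMC-like cells. This was the widest gap between the first and second type of the 10 genes, 92.7-fold. The share of cells with a UMI was 84.1% in HSC-like cells at a median of 6718 UMIs, against 1.82% in FB-like cells at 4893 UMIs and 0.462% in VSMC-like cells at 3151.5 UMIs. VSMC-like cells held 7 Lhx2 UMIs in all. The part of RNA from outside the cells in these low levels was not tested. The FB-like and VSMC-like intervals at 6 wk, 2.96 to 4.88 and 0.801 to 2.20 CPM, each held the uninjured level, so no difference was detectable there at this depth.

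Tcf21, a bHLH factor of mesenchymal precursors (chr10:22817281-22820174, minus strand), had an uninjured level of 551 CPM (544 to 558) in HSC-like cells, against 123 CPM (119 to 128) in FB-like cells and 39.2 CPM (33.7 to 45.2) in VSMC-like ones. Foxf1, a forkhead factor of gut and liver mesenchyme (chr8:121084386-121088144, plus strand), was at 261 CPM (256 to 265), 42.5 CPM and 37.7 CPM in that order, and its FB-like and VSMC-like intervals overlapped. For Hand2, a bHLH factor of lateral plate mesoderm (chr8:57320983-57324633, plus strand), the order was HSC-like at 512 CPM (506 to 519), VSMC-like at 187 CPM (175 to 200) and FB-like at 47.1 CPM (44.1 to 50.2). Foxf1 and Hand2 were thus also detected in the mural and portal cells, at levels 6.12-fold and 2.73-fold under those of HSC-like cells for the next type.

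Wt1, the zinc finger factor of mesothelium (chr2:105126529-105173616, plus strand), had its highest uninjured level in FB-like cells at 70.2 CPM (66.6 to 74.0), while VSMC-like cells had 1.47 CPM and HSC-like cells 1.10 CPM. Meox1, a homeodomain factor of the somite (chr11:101877510-101894374, minus strand), was at 87.9 CPM (83.8 to 92.0) in FB-like cells, at 2.32 CPM in VSMC-like cells and at 0.194 CPM in HSC-like cells, the last from 9 UMIs in 6850 cells. Mef2c, a MADS-box factor of muscle (chr13:83504034-83667080, plus strand), was at 640 CPM (617 to 663) in VSMC-like cells, at 45.1 CPM in FB-like cells and at 33.97 CPM in HSC-like cells, a gap of 14.2-fold. Its share of cells was 80.2% in VSMC-like cells, in spite of the lowest depth of the 7 groups.

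The zinc finger factors Gata4 (chr14:63198922-63271692, minus strand) and Gata6 (chr18:11052064-11085635, plus strand) differed less between types. The intervals of Gata4 overlapped for HSC-like cells, at 60.8 CPM (58.6 to 63.1), and VSMC-like cells, at 60.4 CPM (53.6 to 67.8), and FB-like cells lay lower at 24.5 CPM. For Gata6 the FB-like cells came first with 87.8 CPM (83.7 to 91.9), HSC-like cells had 69.3 CPM (66.9 to 71.7) and VSMC-like cells came last with 24.4 CPM (20.2 to 29.3), so the pair had opposite orders in FB-like and VSMC-like cells. Sox4, an HMG-box factor of embryonic tissues (chr13:28948919-28953713, minus strand), had 132 CPM (128 to 135) in HSC-like cells, 113 CPM (104 to 123) in the VSMC-like ones and 73.4 CPM in the FB-like ones. When each cell was thinned to 2000 UMIs, an uninjured HSC-like cell held on average 2.67 of the 10 genes, an FB-like cell 0.989 and a VSMC-like cell 1.49.

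After CCl4, HSC-like cells had less Tcf21 and more Wt1, while the other genes with enough UMIs stayed within 2-fold. At 72 h, 1 of 9 genes tested was at least 2-fold higher (Wt1) and 1 at least 2-fold lower (Tcf21), where 7.05% and 9.56% of all 8385 genes tested were higher and lower. At 6 wk the counts were again 1 higher (Wt1) and 1 lower (Tcf21) of 9, where 2.95% and 1.62% of 8141 genes were. A gene counted as tested with at least 10 CPM in either condition. The median log2 fold over the 9 genes was -0.11 at 72 h and -0.28 at 6 wk, against -0.22 over all genes in both comparisons. The 2 comparisons share the uninjured library.

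**Figure D2:**
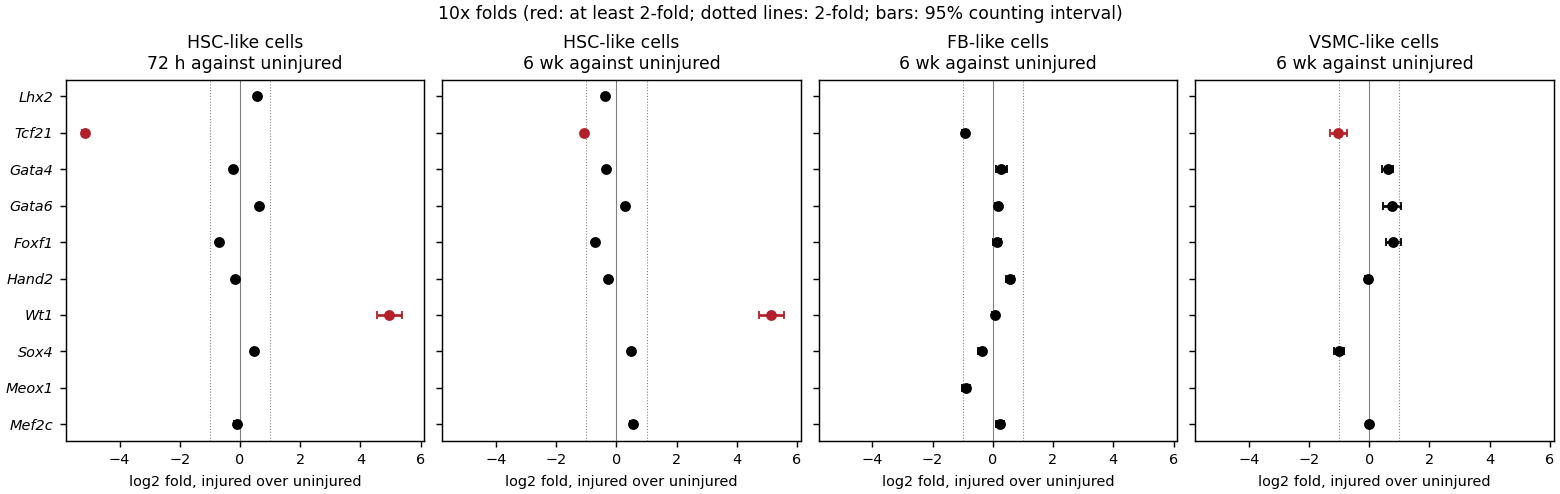
Log2 fold of CPM, CCl4 over uninjured, for each gene with at least 10 CPM in either condition, in HSC-like cells at 72 h and 6 wk and in FB-like and VSMC-like cells at 6 wk, with the 95% counting interval. Red points are at least 2-fold: Tcf21 at -5.15, -1.06 and -1.02 in HSC-like cells at 72 h, at 6 wk and in VSMC-like cells, and Wt1 at 4.96 and 5.15 in HSC-like cells.

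Tcf21 in HSC-like cells was at 551 CPM in the uninjured library, 15.5 CPM (14.7 to 16.3) at 72 h and 264 CPM (260 to 269) at 6 wk. The 72 h level was 35.6-fold under the uninjured one and was the lowest of all 7 groups, below those of FB-like and VSMC-like cells, and the 6 wk level was 2.09-fold under. The share of cells with a Tcf21 UMI was 91.8%, 15.9% and 80.5%, and 63.2%, 3.36% and 38.6% after thinning to 2000 UMIs, in the same order. At 72 h the low level was found in each cluster of HSC-like cells, from 11.1 CPM in the cluster led by Birc5 and Ccna2 to 20.4 CPM in the cluster led by Alpl. The summed level of the 5 HSC markers, Vipr1, Colec11, Pth1r, Ecm1 and Hgf, followed the same order, at 24588, 4309 and 12078 CPM, and its part in the Tcf21 result was not tested.

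Lhx2 had its highest level at 72 h, where Tcf21 had its lowest. The Lhx2 level was 362 CPM in uninjured, 541 CPM (536 to 546) at 72 h and 279 CPM (275 to 284) at 6 wk, which is 1.49-fold above and 1.30-fold under the uninjured library. Foxf1 was 1.63-fold under the uninjured level of 261 CPM at both times, with 160 CPM at 72 h and at 6 wk. Hand2, at 512 CPM in the uninjured library, was at 459 CPM at 72 h and 423 CPM at 6 wk, and Gata4 at 60.8, 51.4 and 47.7 CPM in that order. The log2 folds of Hand2 at both times and of Gata4 at 72 h, -0.16, -0.28 and -0.24, lay within 0.1 of the median of all genes, -0.22. Sox4 was at 184 CPM at 72 h and 185 CPM at 6 wk against 132 CPM, and Gata6 at 108 CPM and 84.2 CPM against 69.3 CPM. Mef2c was at 31.5 CPM at 72 h, close to the uninjured 33.97 CPM, and at 49.3 CPM at 6 wk.

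Wt1 in HSC-like cells was at 1.10 CPM (0.819 to 1.45) in the uninjured library, from 51 UMIs, at 34.2 CPM (32.98 to 35.5) at 72 h and at 39.0 CPM (37.3 to 40.7) at 6 wk. This was 31.1-fold (23.6 to 41.9) and 35.5-fold (26.9 to 47.8) above the uninjured library. The share of HSC-like cells with a Wt1 UMI went from 0.569% to 22.6% at 72 h and 18.7% at 6 wk, and from 0.119% to 5.96% and 6.70% after thinning. In uninjured and 6 wk VSMC-like cells, which come from other libraries, it was 0.462% and 1.11% at medians of 3151.5 and 4469 UMIs. After thinning it was 0.292% and 0.439% there. The part of RNA from outside the cells in the Wt1 result was not tested. Within the 72 h library itself the level differed between clusters, from 0.0 CPM in 236 cells led by Abhd2 and Sema4b to 48.2 CPM in 1409 cells led by Abhd2 and Slc39a1.

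Cells with a Wt1 UMI also held Lhx2 at both times, and Reln and Tcf21 at 6 wk. At 6 wk the 1020 HSC-like cells with Wt1 held Lhx2 at 252 CPM and the HSC gene Reln at 1060 CPM, against 287 and 1339 CPM in the cells without Wt1, and Tcf21 was at 341 against 244 CPM. At 72 h the 1646 cells with Wt1 held Lhx2 at 578 against 528 CPM. All 6 mesothelial markers (Msln, Upk3b, Upk1b, Lrrn4, Muc16, Bnc1) were at 0 in uninjured and 72 h HSC-like cells, and at 6 wk only Msln was detected, at 0.0192 CPM. The FB markers were summed to 30.5, 286 and 538 CPM in uninjured, 72 h and 6 wk HSC-like cells, led by Gpx3 in all 3 libraries. At 6 wk the cells with Wt1 held 1261 CPM of FB markers against 346 CPM in those without, made up mainly of Gpx3 and Dpt, while Clec3b was at 1.19 against 0.558 CPM and was at 2669 CPM in FB-like cells of the 6 wk PF library without Wt1. The part of these genes in the Wt1 result was not tested.

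Meox1 stayed low in HSC-like cells. It was at 0.194 CPM in the uninjured library (9 UMIs), 0.249 CPM at 6 wk (13 UMIs) and 2.20 CPM (1.90 to 2.53) at 72 h (190 UMIs in 141 cells), below the minimum level for a fold to be counted.

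Of 61 related transcription factors, cofactors and neighbouring non-coding genes, 34 were tested in HSC-like cells. At 72 h, 4 were 2-fold higher and 3 lower, beside 7.05% and 9.56% of all genes, and at 6 wk 2 were higher and 0 lower, beside 2.95% and 1.62%. The paired-related homeobox gene Prrx1, a factor of limb and connective tissue mesenchyme, was higher at both times, at 20.8 CPM at 72 h and 13.5 CPM at 6 wk against 2.31 CPM, which is 9.02-fold and 5.84-fold. At 72 h the EMT factor Snai2 was at 61.7 against 27.5 CPM, the bHLH factor Twist2 at 31.5 against 14.4 CPM and the LIM-only factor Lmo2 at 25.3 against 9.64 CPM. The LIM cofactor Ldb2, a partner of LIM homeodomain proteins, was at 30.7 against 84.3 CPM, the forkhead gene Foxs1 at 37.8 against 104 CPM and Srf, the serum response factor, at 13.0 against 35.6 CPM. At 6 wk the inhibitor of bHLH factors Id2 was at 153 against 74.6 CPM. Fendrr, the non-coding gene beside Foxf1, was at 53.2 CPM in uninjured, 44.95 CPM in 72 h and 55.5 CPM in 6 wk HSC-like cells, and at 8.11 CPM or less in the other 4 groups.

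Within each HSC library the genes were compared along a score of zonation genes, and no position in the lobule was measured. HSC-like cells were divided by a zonation score, the mean standardised level of 52 portal genes minus that of 28 central genes. Levels were standardised and the cut was set by k-means within each library, so the parts are relative to their own library. Portal-type (PaHSC-like) and central-type (CaHSC-like) cells were 3022 and 3828 in uninjured, 1696 and 5597 at 72 h and 1703 and 3746 at 6 wk livers. Of these, 817, 536 and 501 lay near the cut. These parts of a score are ranges rather than types. Sox4 is itself on the central list and was left out of the score. Both lists were chosen by the study on these samples, so they are not independent evidence of a direction.

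**Figure D3:**
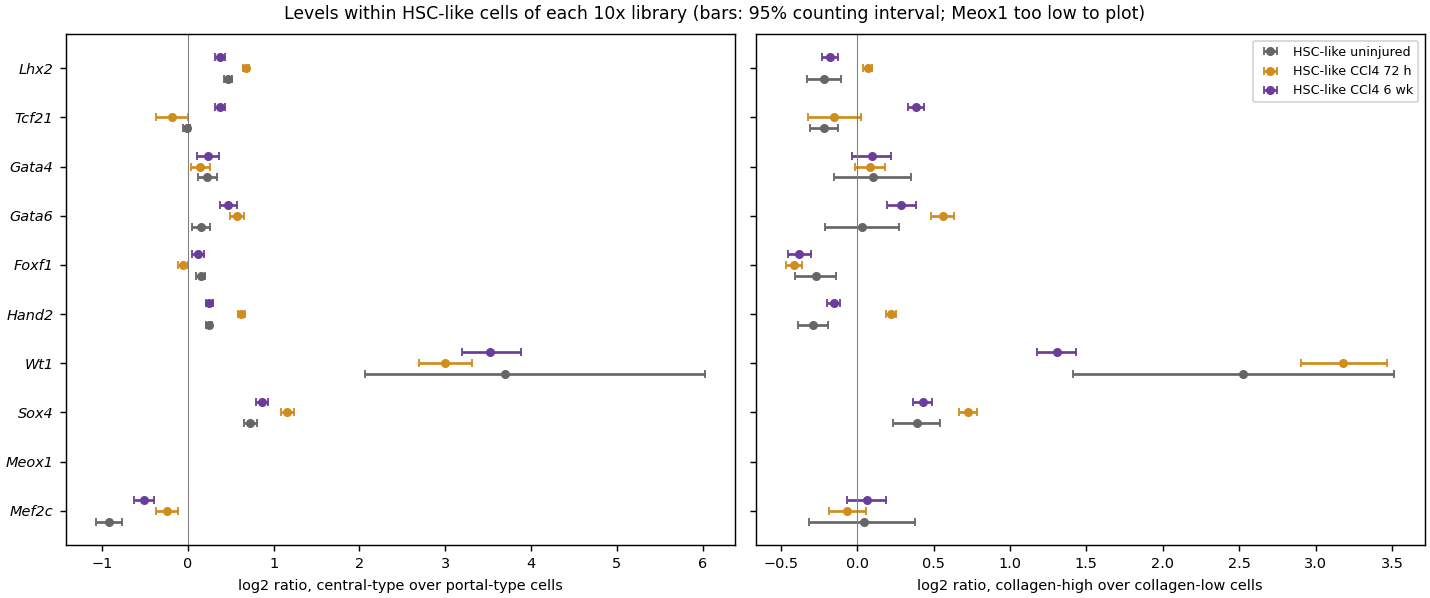
Log2 ratio of CPM in CaHSC-like over PaHSC-like cells (left) and in collagen-high over collagen-low cells (right) for each gene in the HSC-like cells of each library, with the 95% counting interval; Meox1 was too low to plot. Wt1 lies farthest to the right in both panels, Sox4 is to the right of 0 in all 3 libraries in both, and Mef2c is to the left of 0 in the left panel.

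Wt1 was the most uneven of the 10 genes between the 2 parts of the score. In the uninjured library it was at 1.87 CPM in CaHSC-like against 0.145 CPM in PaHSC-like cells, the latter from 3 UMIs. It was at 41.6 against 5.22 CPM at 72 h and 53.9 against 4.68 CPM at 6 wk. The ratios for uninjured, 72 h and 6 wk were 13.0 (4.18 to 65.0), 7.97 (6.48 to 9.92) and 11.5 (9.13 to 14.7). Sox4 was higher in CaHSC-like cells by 1.66-fold, 2.23-fold and 1.82-fold in the same order. Lhx2 was at 413 against 299 CPM, 586 against 366 CPM and 300.3 against 232 CPM, and Hand2 at 551 against 464 CPM, 494 against 321 CPM and 444 against 374 CPM. Gata6 and Gata4 were also higher in CaHSC-like cells in all 3 libraries, Gata6 most at 72 h, with 116 against 78.1 CPM, and Gata4 by 1.10-fold to 1.17-fold. Mef2c went the other way, with 45.9 CPM in PaHSC-like against 24.3 CPM in CaHSC-like cells of the uninjured library, 35.9 against 30.4 CPM at 72 h and 62.3 against 43.6 CPM at 6 wk. Tcf21 showed no single direction: 548 and 554 CPM in uninjured CaHSC-like and PaHSC-like cells, with overlapping intervals, 15.05 and 17.1 CPM at 72 h, and 284 and 219 CPM at 6 wk. Across cells Spearman's rho with the score was at most 0.35 in size for any gene and library, and the largest, -0.350, was that of Lhx2 at 72 h.

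Collagen-high cells, from a split of all HSC-like cells into 2 ranges by k-means on the mean log level of Col1a1, Col1a2 and Col3a1, made up 332 (4.85%) of uninjured, 5066 (69.5%) of 72 h and 1414 (25.9%) of 6 wk HSC-like cells, with 388, 756 and 778 cells near the cut, and most of those after CCl4 were CaHSC-like (4742 and 1263). Wt1 was higher in collagen-high than in collagen-low cells of all 3 libraries, at 5.20 against 0.903 CPM, 44.5 against 4.91 CPM and 68.9 against 27.9 CPM for uninjured, 72 h and 6 wk. Sox4 was higher by 1.31-fold, 1.65-fold and 1.35-fold, and Gata6 by 1.47-fold (1.40 to 1.55) at 72 h and 1.22-fold (1.15 to 1.30) at 6 wk. Foxf1 was lower in collagen-high cells of each library, at 218 against 263 CPM, 147 against 196 CPM and 131 against 171 CPM. Lhx2 was lower in collagen-high cells of the uninjured and 6 wk libraries, at 314 against 365 CPM and 255 against 288 CPM. At 72 h it was slightly higher there, at 548 against 522 CPM, a ratio of 1.05 (1.03 to 1.07). Tcf21 differed in direction between the libraries. In the uninjured library it was lower in collagen-high cells, at 477 against 555 CPM, a ratio of 0.861 (0.807 to 0.917). At 6 wk it was 1.31-fold (1.26 to 1.35) higher in collagen-high cells, at 319 against 244 CPM. At 72 h it was at 15.1 against 16.7 CPM, with overlapping intervals. Since most collagen-high cells after CCl4 are CaHSC-like, the 2 divisions of the cells are not independent there. In the uninjured library the collagen-high cells were 147 PaHSC-like and 185 CaHSC-like, beside 3022 and 3828 of all HSC-like cells.

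HSC-like cells with UMIs of at least 2 of the 5 cell cycle genes Mki67, Top2a, Cenpf, Ube2c and Birc5, 1461 of the 7293 at 72 h, had lower levels of several genes than the rest of that library. Their median was 13537 UMIs against 10942, and its part in these differences was not tested. Hand2 was at 346 CPM (338 to 354) against 498 CPM (492.7 to 503.6), Sox4 at 143 against 198 CPM, Lhx2 at 483 against 561 CPM, Wt1 at 25.1 against 37.4 CPM and Tcf21 at 11.4 against 16.9 CPM. Foxf1 was at 156 against 161 CPM and Gata4 at 49.7 against 51.9 CPM, with overlapping intervals. The uninjured and 6 wk libraries held 38 and 85 such cells.

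In FB-like cells 0 of 9 genes tested were 2-fold higher or lower at 6 wk of CCl4, where 1.43% and 0.463% of 8415 genes were, and Tcf21 and Meox1 lay just outside the limit. Tcf21 was at 64.6 CPM (60.8 to 68.5) against 123 CPM, 1.91-fold under, and Meox1 at 47.3 CPM (44.1 to 50.7) against 87.9 CPM, 1.86-fold under. With cells thinned to 2000 UMIs the log2 fold of Tcf21 was -1.07 and the count 1. The median log2 fold of the 9 genes was 0.14, against -0.01 over all genes. Wt1 was at 73.8 against 70.2 CPM and Gata6 at 98.2 against 87.8 CPM, and Hand2 at 69.6 against 47.1 CPM, 1.477-fold above.

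The FB-like cells fell into 3 clusters, which divided these genes between them. Tcf21 was at 236 CPM (225 to 247) in 1821 uninjured cells led by Ptn and Sfrp1, at 55.6 CPM in 1225 cells led by Ly6c1 and at 32.8 CPM in 1021 cells led by Thbs4 and Tnmd, a gene of tendon. Meox1 had the reverse order, at 28.96, 88.8 and 182 CPM. Hand2 was at 81.4, 14.99 and 34.8 CPM in these clusters and Wt1 at 70.3, 41.9 and 108 CPM. At 6 wk Tcf21 was lower in each of the 3 clusters, at 88.3, 25.1 and 7.80 CPM. Within each cluster it was thus past 2-fold lower, though 1.91-fold under over all FB-like cells. Meox1 was lower in the Ly6c1-led and Thbs4-led clusters, at 50.6 and 97.7 CPM, and at 34.5 CPM in the Ptn-led one, above its uninjured level. The Ptn-led cluster made up 1795 of the 2641 cells at 6 wk and 1821 of the 4067 uninjured cells.

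**Figure D4:**
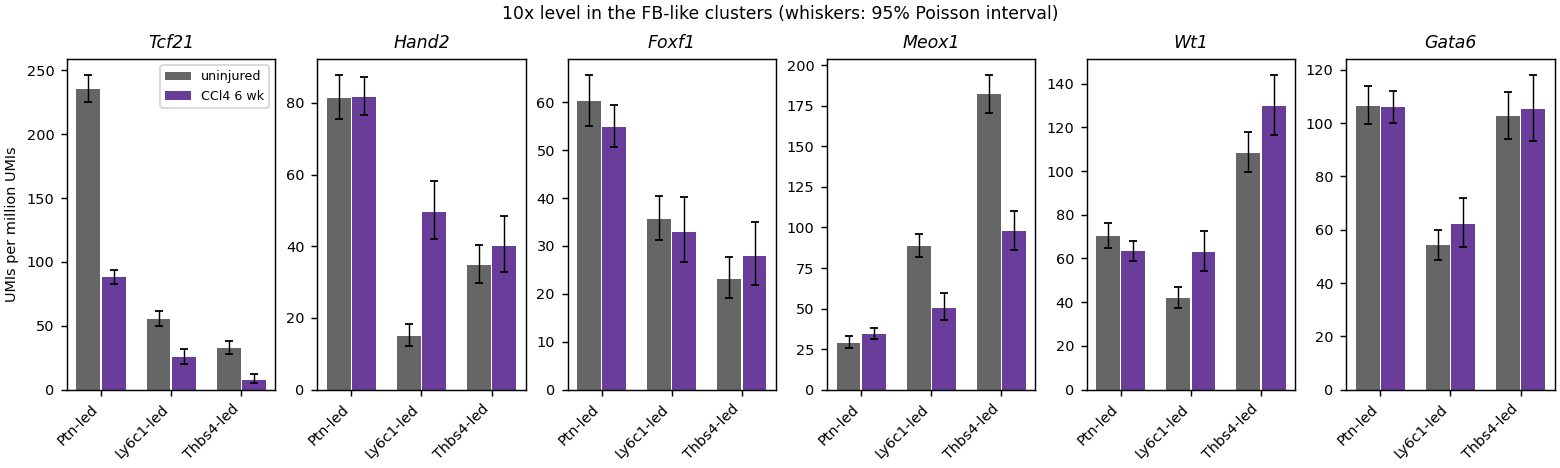
Level of 6 genes in CPM in the FB-like clusters led by Ptn, Ly6c1 and Thbs4 of uninjured (grey) and 6 wk CCl4 (purple) cells, with whiskers for the 95% Poisson interval. Tcf21 is highest in the Ptn-led cluster and lower at 6 wk in each cluster, Meox1 runs from 28.96 to 182 in uninjured cells, and Gata6 differs little between the conditions.

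FB-like cells with a Wt1 UMI, 871 of 4067 in uninjured liver, had FB markers at 9387 CPM summed against 8504 CPM in those without. The clusters were named from these markers, so this is no independent check of the type. In FB-like cells with a Wt1 UMI the mesothelial markers were at 17.4 against 1.53 CPM in the uninjured and 27.6 against 3.44 CPM in the 6 wk library. Sox4 was at 105 against 64.2 CPM and 83.7 against 45.7 CPM. Lhx2 remained at or under 6.38 CPM in FB-like cells with or without Wt1. Of 40 related genes tested in FB-like cells, 2 were 2-fold higher, Id1 at 61.7 against 29.4 CPM and the T-box factor Tbx20 at 40.4 against 10.7 CPM, and 1 was lower, Twist1 at 17.9 against 39.2 CPM, beside 1.43% and 0.463% of all genes.

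In VSMC-like cells Tcf21 was the 1 gene of 7 tested that was 2-fold lower at 6 wk, where 0.523% of 8036 genes were, and 0 were 2-fold higher, where 3.29% were. Its level was 19.3 CPM (16.9 to 21.9) against 39.2 CPM, from 238 and 186 UMIs. Sox4 lay just outside the limit, at 56.8 CPM (52.7 to 61.2) against 113 CPM, a ratio of 0.501. Foxf1 was 1.74-fold, Gata6 1.69-fold and Gata4 1.52-fold above uninjured, at 65.6, 41.3 and 92.1 CPM. The level of Mef2c was 633 CPM against 640 CPM and that of Hand2 182 CPM against 187 CPM, and both pairs of intervals overlapped. The median log2 fold over the 7 genes was -0.02, against 0.08 over all genes.

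The mix of VSMC-like clusters differed between the libraries: a cluster led by Cd24a and Higd1b held 212 of 1514 uninjured and 1363 of 2783 cells at 6 wk, and the rest were led by Pln. Mef2c was at 600 CPM in the Pln-led and 944 CPM in the Higd1b-led uninjured cells and at 484 and 787 CPM at 6 wk, so it was lower within each cluster, with log2 folds of -0.31 and -0.26, though level over all cells. Tcf21 went from 36.4 to 13.7 CPM and from 60.1 to 25.0 CPM in these clusters. Sox4 went from 109 to 52.2 CPM and from 149 to 61.6 CPM, so both genes were past 2-fold lower within either cluster. The share of all genes past 2-fold within these clusters is not given, so how common such a change is there cannot be judged. With the mean of the cells' own CPM in place of summed UMIs, the count of genes 2-fold lower over all VSMC-like cells was 0. Of 39 related genes tested, Tbx20, at 93.0 against 13.9 CPM, and Snai1, at 27.5 against 10.3 CPM, were higher, and Tcf15, at 6.07 against 17.7 CPM, and Twist1, at 4.45 against 10.5 CPM, were lower, beside 3.29% and 0.523% of all genes.

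The plates gave replicate portions. Reads were summed over the FB-like or VSMC-like wells of each mouse on each plate, called a portion, with at least 5 wells, which gave 6 uninjured, 5 BDL and 4 CCl4 portions of either type. Wells of an unnamed cluster led by Serpinb2, Mmp7 and Cxcl5 were left out. This cluster held 141 CCl4 wells, beside 114 FB-like CCl4 wells that were kept. Its FB marker score, the mean marker level relative to the highest cluster, was 0.493, beside 0.417 to 0.949 in the FB-like clusters. The labels do not say whether a mouse is on more than 1 plate. The paper counts fewer uninjured mouse liver samples for Smart-seq2 than there are uninjured portions here, so portions may share a mouse. The p-values measure the spread between portions, which need not be that between mice. No plate held both BDL and CCl4 wells, so without the plate as a block their differences cannot be told apart from differences between plates. Changes were tested with edgeR (quasi-likelihood test, Benjamini-Hochberg adjustment over all genes) in 1 fit per type. In these sums, fewer cells that express a gene and less RNA per cell cannot be told apart.

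No gene of the 10 passed the test in any of the 6 comparisons. In FB-like wells, 0 of 10 passed for BDL against uninjured, where 0.24% of 13309 genes did, 0 for CCl4 against uninjured, where 0% did, and 0 for BDL against CCl4, where 0.0225% did. In VSMC-like wells, 0 of 8 passed, where 0.321% of 13076 genes did for BDL against uninjured, 0% for CCl4 against uninjured and 0.00765% for BDL against CCl4. At an unadjusted p under 0.05 the counts of the 10 or 8 genes were 1, 0 and 2 in FB-like wells and 1, 0 and 1 in VSMC-like wells, beside 1135, 519 and 945 of 13309 and 1184, 611 and 745 of 13076 genes, and by DESeq2 (adjusted) 0, 0, 0 and 1, 0, 0, the 1 being Lhx2. Over all genes the edgeR calls for BDL against uninjured went from 32 to 0 in FB-like and from 42 to 1 in VSMC-like wells with the plate as a replicate block, and the DESeq2 calls were 274 and 270. For CCl4 against uninjured, with 0 edgeR calls in either type, 519 and 611 genes had an unadjusted p under 0.05 and DESeq2 called 41 and 57. Of the related genes, 0 of 50 in FB-like and 0 of 48 in VSMC-like wells passed in any comparison, and 6 and 6 had an unadjusted p under 0.05 for BDL against uninjured, beside 1135 of 13309 and 1184 of 13076 genes.

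**Figure D5:**
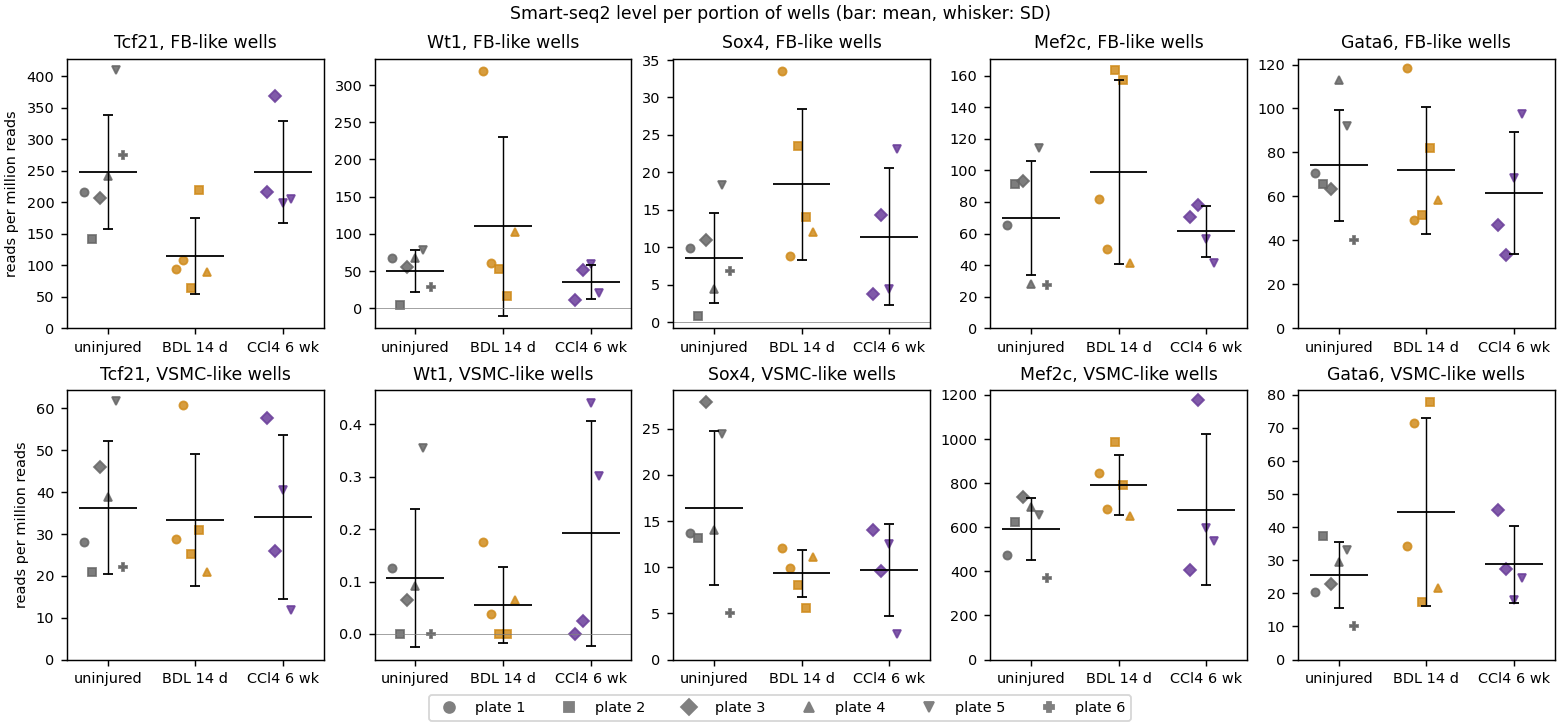
Smart-seq2 level in CPM of Tcf21, Wt1, Sox4, Mef2c and Gata6 in each portion of FB-like (top) and VSMC-like (bottom) wells, with markers for the 6 plates and bars and whiskers for the mean and SD. Of the BDL portions of FB-like wells, 4 of 5 lie at or under 108 for Tcf21, and 1 portion of plate 1 lies at 318 for Wt1.

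Tcf21 in FB-like wells came nearest to a difference. Its level in CPM (reads per 1000000 reads of the portion) was 94.7, 108, 64.6, 219 and 89.6 in the BDL portions, 217, 368, 198 and 206 in the CCl4 portions, and 142 at the lowest, 229 at the median and 410 at the highest of 6 uninjured portions. Of the BDL portions, 4 of 5 lay under every uninjured and CCl4 portion, and the portion of plate 2 at 219 lay among them. The log2 fold change was -1.11 ± 0.31 (SE, adjusted p = 0.169, edgeR) for BDL against uninjured, -1.10 ± 0.34 (adjusted p = 0.453) against CCl4 and -0.01 ± 0.33 (adjusted p = 1) for CCl4 against uninjured. Without the portion of plate 2 at 219, from 9 wells, the change was -1.46 with an adjusted p of 0.0401, and with the plate as a replicate block it was -0.80 with an adjusted p of 0.831. The share of FB-like wells with a Tcf21 read was 90.5% in uninjured, 68.3% in BDL and 88.6% in CCl4 wells.

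Wt1 in FB-like wells varied more between portions than between conditions, at 318, 60.4, 52.1, 16.8 and 103 in BDL, 10.8, 51.3, 58.9 and 20.4 in CCl4, and 3.85 at the lowest, 61.5 at the median and 78.3 at the highest in uninjured portions. The change for BDL against uninjured was 1.14 ± 0.68 (adjusted p = 0.734, edgeR). For CCl4 against uninjured it was -0.53 ± 0.74 (adjusted p = 1, edgeR), and it turned to 2.14 (adjusted p = 0.232) when each well took its type from its own markers, and the cause was not tested. In VSMC-like wells Wt1 was at or under 0.441 in each portion. Meox1 was at 8.25 to 49.0 in BDL, 0 to 50.2 in uninjured and 6.14 to 24.1 in CCl4 portions of FB-like wells and at or under 0.0512 in VSMC-like wells. Sox4 in FB-like wells was at 33.5, 8.80, 23.5, 14.1 and 12.1 in BDL portions and 0.833 to 18.3 in uninjured ones, a change of 1.13 ± 0.73 (adjusted p = 0.774, edgeR).

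Mef2c in VSMC-like wells was at 848, 684, 988, 792 and 652 in BDL portions, 405, 1178, 598 and 539 in CCl4 portions and 369, 640 and 737 as the lowest, median and highest of the uninjured ones. The change for BDL against uninjured was 0.49 ± 0.24 (adjusted p = 0.577, edgeR), and 3 of 5 BDL portions lay above every uninjured portion. Gata6 was at 34.4, 71.7, 17.4, 77.9 and 21.5 in BDL and 10.00 to 37.5 in uninjured portions, a change of 0.86 ± 0.43 (adjusted p = 0.597, edgeR). Lhx2 was at 0 in 4 of 5 BDL portions and at 0.0379 in the other, against 0 to 6.03 in uninjured and 0 to 6.43 in CCl4 portions, so nearly all portions were at the level of a few wells and a fold has no meaning there. Gata4 (157 to 285 but for 1 CCl4 portion at 86.6), Foxf1 (18.0 to 81.8) and Hand2 (42.8 to 95.8) spread within each condition of VSMC-like wells about as widely as between them. The difference between FB-like and VSMC-like wells in the change with BDL or CCl4 was tested as an interaction, and 0 of the 10 genes passed, with Tcf21 at -1.06 ± 0.45 (adjusted p = 0.901, edgeR) for BDL, where 4 of 14567 genes passed.

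In uninjured wells Lhx2, Tcf21 and Foxf1 again led in HSC-like cells and Mef2c in VSMC-like cells, where the HSC-like wells came from 2 mice of plate 6 and from no other mouse. In CPM, Lhx2 was at 94.0 and 107 in the HSC-like portions against 0 to 3.36 in uninjured FB-like ones, Tcf21 at 437 and 474 against 142 to 410, and Foxf1 at 106 and 135 against 18.3 to 82.2. Hand2 was at 66.6 and 91.6, which overlapped the uninjured FB-like (9.72 to 81.9) and VSMC-like portions (49.8 to 92.1). Mef2c was at 369 to 737 in uninjured VSMC-like portions and at or under 114 in uninjured FB-like and HSC-like ones. Meox1 had no read in the 312 HSC-like wells of these 2 mice.

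Within FB-like wells the genes again differed between clusters, of which 3 are given here. Wt1 was at 297 in 134 wells led by Ttc9 and Sfrp2, of which 77 were from BDL, and at 0.0187 in 112 wells led by Notum, none of them from BDL. Tcf21 was at 106 and 271 in the same clusters. Meox1 was highest, at 88.5, in 68 wells led by Cyp26a1 and Chad, a cartilage matrix gene, of which 66 were from BDL, and Tcf21 was at 60.6 there.

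The genes whose levels over the 32 portions by type were most like each of the 10 were found among 9409 others, by Pearson's r of log2(CPM + 1), as a description, since the points share plates and types. Lhx2 went with Colec10 and Reln (0.89 and 0.87), both genes of HSCs. Wt1 went with Igfbp6 and Gda (0.96 and 0.95), Meox1 with Gria3 and Cyb561 (0.93 and 0.93), Mef2c with Atpif1 and Filip1l (0.97 and 0.96) and Tcf21 with Epb4.1l2 and Tapbp (0.92 and 0.92). Those of Hand2 were 5430417L22Rik and Dnajc8 (0.86 and 0.81), of Gata4 Sgip1 and Gprc5c (0.82 and 0.82), of Gata6 Slc44a1 and Npc2 (0.81 and 0.80), of Foxf1 Mcm2 and Itpripl1 (0.77 and 0.73), and of Sox4 Usp25 and Slc25a38 (0.67 and 0.67). Between the 10 genes themselves the closest pair was Wt1 and Meox1 (0.93), and the most opposed was Tcf21 and Mef2c (-0.85).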

How the data were processed

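10x Genomics 3' libraries (v2) were aligned and counted by the authors with Cell Ranger 2.1.0 (STAR, mm10), and the deposited values are unnormalised UMI counts per gene and cell. The Smart-seq2 plates were deposited as read counts per RefSeq gene and well, which the authors made with rpkmforgenes and did not normalise, with a layout that gives the mouse of each well. All 10x cells with at least 300 genes and at most 30% mitochondrial UMIs were kept, and wells within 3 median absolute deviations, 2065 of 2292 with a median of 445490 reads. Rows of 279 plate gene names listed more than once were added up.

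The 10 genes and 61 related genes were left out of the clustering (2000 variable genes, 10 principal components, 30 neighbours, Leiden resolution 0.8; Python 3.11.15, scikit-learn 1.9.0, leidenalg 0.10.2), and clusters were named from marker lists. Called doublets, 0.8% per 1000 cells, were left in, and an alternative left them out. UMIs of each type and library were added up and divided by their total (CPM). A 10x gene counted as past the fold at 2-fold with at least 10 CPM in the higher group, and 10x differences have no test, since there is 1 library a group. A count of 0 was read against a floor of 3 counts.

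Portions of at least 5 wells were tested with edgeR 4.0.16 (quasi-likelihood, TMM, R 4.3.3) in 1 fit per type over the 3 conditions, with adjusted p under 0.05 as the threshold, and DESeq2 1.42.0 was an alternative. The scripts were tested on simulated data. Uninjured wells shared plates with BDL wells (plates 1, 2 and 4) or with CCl4 wells (plates 3 and 5), and no plate held both injuries. The plate is a batch in the labels, so a fit with the plate as a block was made too. Deviations of same-plate portions from their condition means correlated from -0.05 to 0.14 in FB-like and -0.033 to 0.041 in VSMC-like wells (9 pairs each), and those of different plates from -0.11 to 0.089 and -0.12 to 0.15 (65 pairs each).

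All 10 genes are named. Related genes are named where past the fold or the test. The 2 most like genes have the highest Pearson r over portions by type, outside all lists. The genes, the lists and the tests were chosen with earlier results of these data known. Sequences are from RefSeq, and positions from GENCODE on GRCm38. The values of 1 further cluster of FB-like wells are not reported here.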

Additional observations from a re-analysis of the deposited data

Results flagged for a closer look

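Of 59 groups of 4 to 6 portions, 9 held a portion that stood apart from the rest by Dixon's test at the 95% level. Where the other portions of a group held no read, the test flags any read at all. This was so for Lhx2 in FB-like CCl4 and VSMC-like BDL wells and for Meox1 in uninjured VSMC-like wells. The count of 9 therefore cannot be set against the rate of about 1 in 20 that chance gives. Tcf21 in FB-like wells was at 219 CPM in the second BDL mouse of plate 2, from 9 wells, against 64.6 to 108 in the other 4 BDL portions, and at 368 in the second CCl4 mouse of plate 3 against 198 to 217 in the other 3 CCl4 portions. In VSMC-like wells Tcf21 was at 60.9 in the second BDL mouse of plate 1, against 20.8 to 30.9 in the others. Wt1 in FB-like wells was at 318 in the first BDL mouse of plate 1, from 90 wells, against 16.8 to 103, and 70 of the 134 wells of the Ttc9-led cluster with the highest Wt1 of the FB-like clusters came from this portion.

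The other portions that stood apart lay at or near 0. Lhx2 was at 0.826 in FB-like wells of the first CCl4 mouse of plate 3, from 16 reads, and at 0.0379 in VSMC-like wells of the second BDL mouse of plate 2, from 1 read, where the other portions of their groups were at 0. In VSMC-like wells Meox1 was at 0 in the first BDL mouse of plate 1, against 0.0373 to 0.0512, and at 0.0306 in the uninjured mouse of plate 4, from 1 read, against 0, and Wt1 was at 0.355 in the uninjured mouse of plate 5, from 9 reads, against 0 to 0.126.

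Wells outside the 3 types held more Wt1 than any type. In 165 wells led by Serpinb2, Mmp7 and Saa3, which carried no name, 2 of them from uninjured, 22 from BDL and 141 from CCl4 mice, Wt1 was at 417 CPM with a read in 86.7% of wells, Gata6 at 150 CPM, Sox4 at 36.8 CPM, Tcf21 at 2.87 CPM and Lhx2 at 0. In 27 wells named mesothelial-like by Msln, Upk1b and Upk3b, Wt1 was at 505 CPM with a read in 92.6% of wells, Gata6 at 172 CPM and Gata4 at 115 CPM, and Tcf21 and Lhx2 were at 0.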

How the results depend on the processing

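Counts of genes called were within 1.5 times the reported ones in 168 recomputations and not in 6. The exceptions were in FB-like 10x cells 1 gene lower with thinned cells (Tcf21) against 0, in VSMC-like 10x cells 2 within the Pln-led and 2 within the Higd1b-led cluster (Tcf21 and Sox4) and 0 with the mean of the cells' own CPM, against 1, in VSMC-like wells for BDL against uninjured 1 by DESeq2 (Lhx2, log2 -7.74, adjusted p = 0.0257) against 0, and for BDL against uninjured in FB-like wells 0 to 1 with each portion left out in turn (Tcf21 from -1.46 to -0.93, adjusted p = 0.0401 to 0.365, edgeR). Wt1 in FB-like wells reversed, from -0.53 to 2.14 for CCl4 against uninjured and from 1.67 to -0.96 for BDL against CCl4, when types came from each well's own markers, and to 2.18 and -0.97 when the unnamed Saa3 wells were joined to the FB-like wells; no adjusted p passed, and the cause was not tested. Of the values of single genes, 372 kept their direction and side of the threshold or moved by less than their error, 42 moved by more, 4 reversed and 2 newly passed a threshold. The within-cluster fits and the joined wells were chosen after seeing the data. The share of all genes past the fold within the Pln-led and Higd1b-led clusters is not given, so the counts there have no background beside them.

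With the plate as a replicate block, 0 of the 10 genes passed in any comparison, as without it, and Tcf21 in FB-like wells was -0.80 (adjusted p = 0.831, edgeR) for BDL against uninjured. Over all genes, calls for BDL against uninjured in FB-like wells were 32, and 0 with the block, 274 by DESeq2, 50 with every gene of at least 1 read, 68 with types from own markers, 83 with the Saa3 wells and 7 without the Notum-led and Chad-led clusters. For CCl4 against uninjured there were 0, and 41, 65 and 71 by DESeq2, own markers and joined wells, and for BDL against CCl4 3, 124 by DESeq2 and 0 with the block, own markers, joined wells or without those clusters. In VSMC-like wells DESeq2 called 270, 57 and 66 in the 3 comparisons and the block fit 1, 0 and 0, against 42, 0 and 1. The zonation split was run under 1 setting only. Levels under 10 CPM and 10x differences rest on few UMIs or 1 library and were given no test.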
